A study of Mus musculus with 12 samples.

Results

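The transcripts described here are those of 9 regulators of apoptosis in the mouse blastocyst: the effectors Bax and Bak1, the survival proteins Bcl2l1 (BCL-XL) and Mcl1, the BH3-only genes Pmaip1 (NOXA), Bad, Bcl2l11 (BIM) and Bid, and Trp53bp2 (ASPP2), a partner of p53. They were chosen by name, and each had a row of its own among the 34245 genes of the expression table. Blastocysts came from superovulated F1 hybrid (C57Bl6 x CBA/W) females mated with F1 males. They were recovered from the oviduct as cleavage-stage embryos, grown in KSOM with added amino acids to E3.5, and then cultured with DMSO (control) or with 20 µM SB220025, an inhibitor of p38-MAPK (p38-MAPKi), for 4, 7 or 10 h. Each of the 12 mRNA-Seq libraries was made from a pool of 30 embryos. The 6 groups held 2 biological replicates each, and the comparisons below ask which of these transcripts differed after p38-MAPKi at each time. All embryos of a group carried the solvent, and no uninhibited group without DMSO was analysed here. Each pool mixes trophectoderm with inner cell mass, in which uncommitted cells stand beside those turning to epiblast or primitive endoderm. In such a mixture, fewer cells of a type and less RNA per cell cannot be told apart.

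In the mitochondrial pathway of apoptosis, BAX and BAK form pores in the outer mitochondrial membrane, which release cytochrome c and lead to caspase activation. BCL-XL and MCL1 hold the effectors in check, and BH3-only proteins bind the survival proteins or, in the case of BIM and BID, also act on the effectors directly. ASPP2 binds p53 and favours its activity at promoters of apoptosis genes, and Pmaip1, Bbc3 (PUMA) and Bax are classical p53 target genes. Programmed cell death is a normal event in the blastocyst, above all in the inner cell mass. These proteins are controlled to a large extent after translation, through phosphorylation, cleavage and degradation, which mRNA levels do not measure.

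The libraries held between 11242313 and 24457312 reads. The p38-MAPKi library of replicate 1 at E3.5 + 7 h was the shallowest, and the replicates of that group had the lowest correlation of log2 RPKM (r = 0.944 across genes, against 0.973 to 0.987 in the other groups). Results at + 7 h are therefore given with and without it for the 9 genes and for the other apoptosis genes that passed the threshold. The trophectoderm markers summed to between 1770 and 2600 RPKM in the 12 libraries, the epiblast markers to between 572 and 726, and the primitive endoderm markers to between 133 and 213. Markers of oviduct or cumulus cells summed to at most 8.30 RPKM and those of blood cells to at most 1.01. The labelled tissue was therefore found in its defining markers, although Foxa2 and Sox7 of the primitive endoderm and Elf5 of the trophectoderm stayed below 1 RPKM in every library.

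Levels of the 9 genes in control embryos differed widely in RPKM (read density along the transcript at a common sequencing depth). The paper states that no spiked-in RNA was used, so total mRNA output could not be compared between libraries. It also reports weaker staining for marks of active transcription after p38-MAPKi at + 10 h. RPKM and the fold changes below are thus shares of the reads of a library, not amounts per embryo. Over the 6 control libraries Bax was highest with 122 ± 10.1 RPKM (mean ± SD, n = 6), followed by Mcl1 with 102 ± 6.64. The 6 are 2 libraries at each of the 3 times, so each SD holds the time course as well as the spread of replicates. Trp53bp2 came next with 34.8 ± 2.44 RPKM, then Bad with 20.6 ± 1.34 and Bcl2l1 with 12 ± 0.963. The lower part of the order was formed by Pmaip1 with 10.3 ± 2.18 RPKM, Bak1 with 6.29 ± 1.15, Bcl2l11 with 3.30 ± 0.478 and Bid with 1.45 ± 0.310. Among neighbours in this order, the ranges over control libraries overlapped for Bax and Mcl1, for Bcl2l1 and Pmaip1 and for Pmaip1 and Bak1, and for no other pair. Bax nevertheless lay above Mcl1 in 6 of 6 control libraries, and Bcl2l1 above Pmaip1 in 5 of 6. The effector Bax and the survival gene Mcl1 ranked at percentiles 98.6 and 97.9 of the genes with a read, and Bid, which had only 48 to 217 reads per library, at 58.1. Bcl2 itself, the founder of the family, was near the floor of the table, between 0.00422 and 0.0359 RPKM.

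In the annotation used here the genes lie on GRCm38 at chr1:182409172-182462432 (Trp53bp2, plus strand), chr7:45461697-45466898 (Bax, minus), chr19:6941861-6951898 (Bad, plus), chr3:95658788-95663176 (Mcl1, plus) and chr2:152780668-152831728 (Bcl2l1, minus). Bcl2l11 lies at chr2:128126038-128162547 (plus), Bak1 at chr17:27019810-27029009 (minus) and Bid at chr6:120891930-120916853 (minus).

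**Figure D1:**
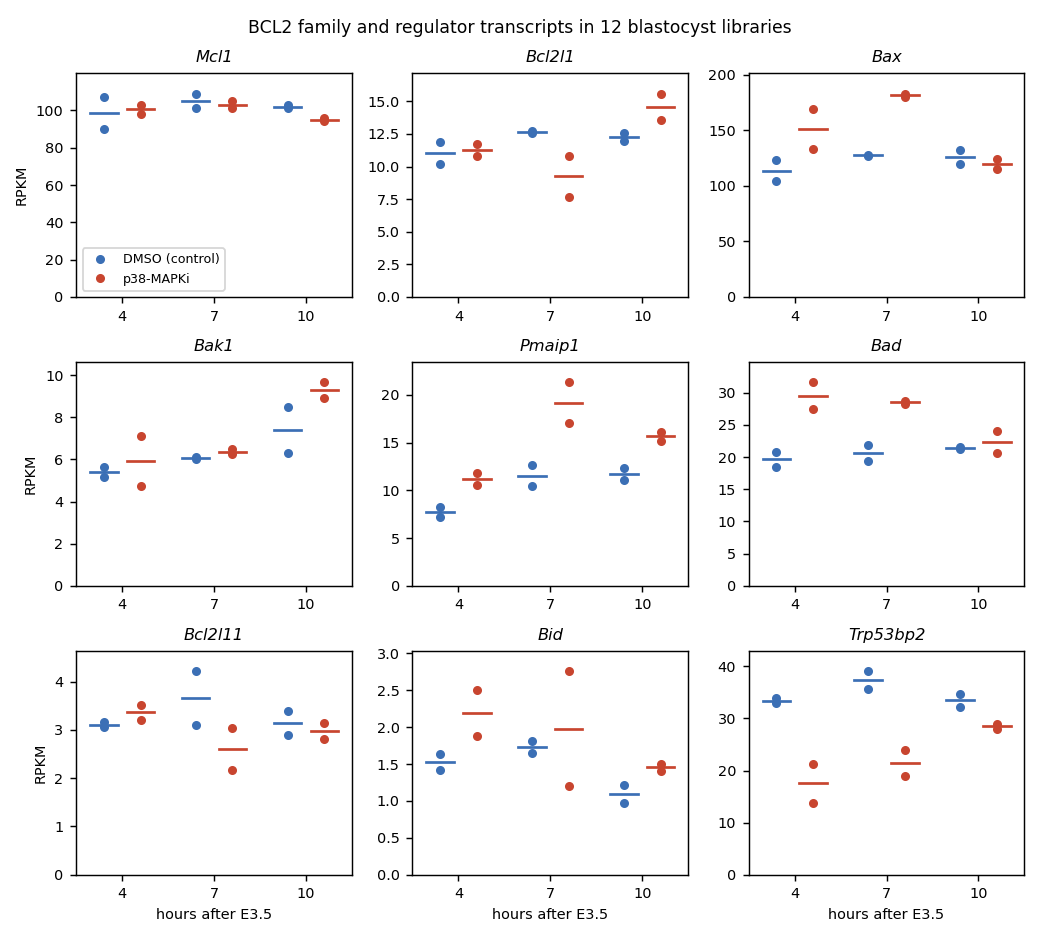
Level of each of the 9 transcripts in RPKM (linear axes that start at 0 and differ in range between panels) at 4, 7 and 10 h after E3.5, with one point per library and a line at the mean of the 2 replicates. The points of Trp53bp2 after p38-MAPKi lie below those of controls at all 3 times, those of Pmaip1 lie above, and those of Mcl1 stay between 90.1 and 109 RPKM.

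Trp53bp2 was lower and Pmaip1 higher after p38-MAPKi, and these were the only members past the threshold in any comparison. At E3.5 + 4 h, 1 of the 9 genes passed (limma, adjusted p under 0.05 over all genes tested) and it fell, where 0.909% of all genes tested passed (98 of 10781) and 0.288% passed and fell. An unadjusted p under 0.05 was found for 4 of the 9 at that time and for 9.42% of all genes. At + 7 h and + 10 h none of the 9 passed in limma, with 4 and 3 of them at an unadjusted p under 0.05, where 2.13% and 0.803% of all genes passed and 28.4% and 19.8% had such an unadjusted p. In the effect common to the 3 times, fitted to all 12 libraries, 2 of the 9 passed, 1 in each direction, against 2.84% of all genes (314 of 11050), made up of 1.52% that rose and 1.32% that fell. There 4 of the 9 had an unadjusted p under 0.05, beside 25.8% of all genes. All 9 genes passed the filter on low values in every comparison. The median log2 fold change of the 9 genes was 0.11, 0.07 and 0.05 at + 4 h, + 7 h and + 10 h, beside 0.07, -0.14 and -0.02 for all genes tested.

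**Figure D2:**
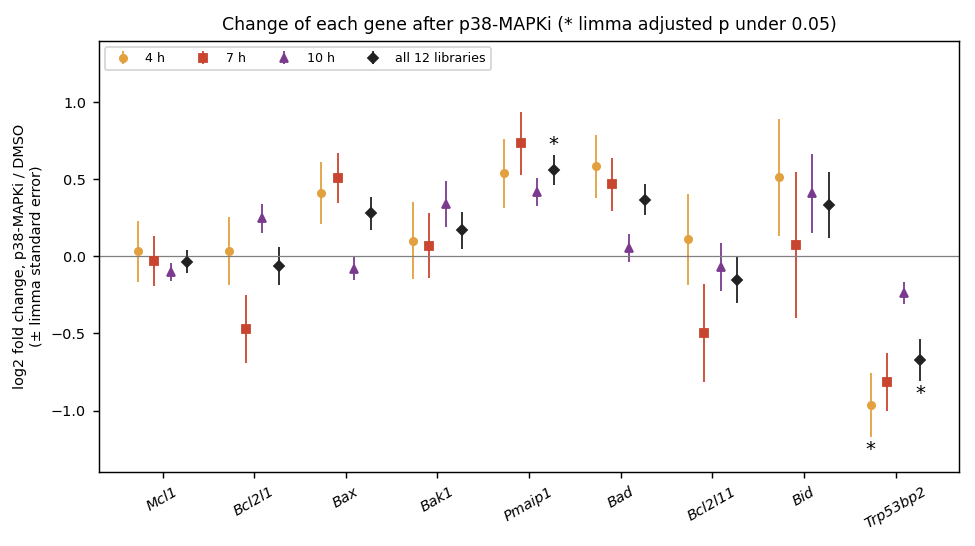
Log2 fold change of each gene after p38-MAPKi, with limma's standard error, at 4, 7 and 10 h and as the effect common to all 12 libraries. The asterisks, at an adjusted p under 0.05, stand at Trp53bp2 at 4 h and in the common effect and at Pmaip1 in the common effect.

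Trp53bp2 encodes ASPP2, which binds p53 and also protein phosphatase 1 and polarity proteins of epithelia. In control embryos it stood at 33.9 and 33.0 RPKM at E3.5 + 4 h (replicates 1 and 2), at 35.7 and 39.1 at + 7 h, and at 34.8 and 32.3 at + 10 h. After p38-MAPKi it stood at 21.3 and 13.8 RPKM at + 4 h, at 18.9 and 23.9 at + 7 h, and at 29.0 and 28.0 at + 10 h. At each time both treated libraries were below both controls, with a wide gap at + 4 h and + 7 h and a narrow one at + 10 h. The pattern of treated libraries below controls at each of the 3 times was met by 4.13% of all genes tested (456 of 11050). The log2 fold change was -0.96 ± 0.21 (limma SE, n = 2 against 2) at + 4 h, an adjusted p of 0.0011 in limma. It was -0.82 ± 0.19 (adjusted p = 0.0534) at + 7 h and -0.24 ± 0.07 (adjusted p = 0.152) at + 10 h. The common effect was -0.67 (95% interval -0.96 to -0.38, limma adjusted p = 0.024), a level 0.628 times that of controls. In control embryos the log2 difference between + 10 h and + 4 h was 0.00 (95% interval -0.24 to 0.25), and both controls at + 7 h lay above those of the other times, a difference that was not tested.

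The call of Trp53bp2 at + 4 h rested on a fit in which limma gave every gene the spread of its expression level alone. It was lost in limma without that trend (adjusted p = 0.277), and likewise without control replicate 1 (log2 fold change -0.95, adjusted p = 0.31), without control replicate 2 (-0.98, 0.098) and without p38-MAPKi replicate 2 (-0.65, 0.224). The common effect of Trp53bp2 lost its call by a small margin without control replicate 1 or 2 at + 4 h (limma adjusted p = 0.0591 and 0.0617), control replicate 1 or 2 at + 7 h (0.0591 and 0.0516) or p38-MAPKi replicate 2 at + 7 h (0.0558), with log2 fold changes between -0.70 and -0.63. Without the shallow library at + 7 h the common effect was -0.61 (limma adjusted p = 0.037) and the effect at + 7 h -0.65 (adjusted p = 0.089). The change of effect from + 7 h to + 10 h was 0.58 ± 0.19 on the log2 scale, with a limma adjusted p of 0.109, which misses the threshold. In that contrast 0 of the 9 genes passed and 4 had an unadjusted p under 0.05, against 0.00926% and 27.1% of all genes tested.

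Pmaip1 encodes NOXA, a BH3-only protein that binds MCL1 and promotes its degradation. Its control levels were 7.21 and 8.20 RPKM at E3.5 + 4 h, 10.4 and 12.6 at + 7 h, and 12.3 and 11.1 at + 10 h. After p38-MAPKi they were 11.8 and 10.5 RPKM at + 4 h, 21.3 and 17.0 at + 7 h, and 16.1 and 15.2 at + 10 h. At each time both treated libraries lay above both controls, as did those of 3.57% of all genes tested (395 of 11050), and Pmaip1 was the only one of the 9 to do so. The effect common to the 3 times was 0.56 on the log2 scale (95% interval 0.35 to 0.77, limma adjusted p = 0.0138), a level 1.48 times that of controls. At single times the log2 fold change was 0.54 ± 0.23, 0.73 ± 0.20 and 0.42 ± 0.09 at + 4 h, + 7 h and + 10 h, with limma adjusted p of 0.354, 0.0681 and 0.0865. Without the shallow library the value at + 7 h was 0.57 (adjusted p = 0.146). The common effect stayed past the threshold in 20 of 20 alternative fits, with log2 fold changes between 0.49 and 0.62. That range includes the fit without the shallow library (0.50, limma adjusted p = 0.0153).

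Pmaip1 was also the member with the largest time course in control embryos. Its controls at + 10 h lay above those at + 4 h, a log2 difference of 0.61 ± 0.14 with a limma adjusted p of 0.0931. None of the 9 genes passed in that comparison (2 at an unadjusted p under 0.05), where 0.471% of all genes passed and 15.2% had such an unadjusted p. Bak1 was the other gene with an unadjusted p under 0.05, with a log2 difference of 0.44 ± 0.17 (limma adjusted p = 0.278). The control libraries at + 10 h lay above those at + 4 h for 4 of the 9 genes (Bak1, Bcl2l1, Pmaip1 and Bad) and below them for Bid, where 42.3% and 8.06% of all genes tested did.

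Bad was the other BH3-only gene of the 9 with treated libraries above controls at both earlier times. BAD ties survival signalling to the family, since it binds BCL-XL unless it is phosphorylated. Control levels of Bad were 18.5 and 20.8 RPKM at + 4 h, 21.9 and 19.4 at + 7 h, and 21.3 and 21.5 at + 10 h. After p38-MAPKi they were 27.4 and 31.6 RPKM, 28.3 and 28.7, and 24.0 and 20.6 at the same times. The treated libraries were above the controls at + 4 h and + 7 h and straddled them at + 10 h. The log2 fold changes were 0.59 ± 0.21, 0.47 ± 0.17 and 0.05 ± 0.09, with limma adjusted p of 0.173, 0.126 and 0.779. The common effect of 0.37 ± 0.10 missed the threshold with a limma adjusted p of 0.0586, and without the shallow library the value at + 7 h was 0.48 (adjusted p = 0.206).

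Bcl2l11 and Bid, the BH3-only genes that can act on the effectors directly, were the lowest of the 9. Bcl2l11 stood at 3.06 and 3.16 RPKM in controls at + 4 h, 3.10 and 4.22 at + 7 h, and 3.39 and 2.90 at + 10 h. After p38-MAPKi it stood at 3.52 and 3.21, 2.16 and 3.04, and 2.82 and 3.15 RPKM. The treated libraries were thus just above the controls, below them and overlapping with them in turn. Its log2 fold changes of 0.11 ± 0.30, -0.50 ± 0.32 and -0.07 ± 0.16 did not pass (limma adjusted p = 0.93, 0.326 and 0.833), and at + 7 h the value was -0.25 without the shallow library (adjusted p = 0.664). Bid stood at 1.63 and 1.42 RPKM in controls at + 4 h, 1.65 and 1.81 at + 7 h, and 0.976 and 1.22 at + 10 h, and after p38-MAPKi at 2.51 and 1.88, 1.20 and 2.76, and 1.5 and 1.41. The treated libraries of Bid were above the controls at + 4 h and + 10 h, and at + 7 h they enclosed them, with the lowest value in the shallow library. Without that library the log2 fold change of Bid at + 7 h was 0.68 (limma adjusted p = 0.28) instead of 0.08. The limma interval of its common effect, -0.12 to 0.79 on the log2 scale, spans both directions.

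Bax, the more abundant effector, was higher in treated than in control libraries at the earlier times and level with them at + 10 h, with no call at any time. Control levels were 104 and 123 RPKM at + 4 h, 127 and 128 at + 7 h, and 132 and 120 at + 10 h. After p38-MAPKi Bax stood at 133 and 169 RPKM at + 4 h, at 183 and 180 at + 7 h, and at 115 and 124 at + 10 h. The log2 fold changes were 0.41 ± 0.20, 0.51 ± 0.17 and -0.08 ± 0.08 (limma adjusted p = 0.504, 0.0934 and 0.607), and the value at + 4 h was 0.24 without p38-MAPKi replicate 2. The change of effect from + 7 h to + 10 h, -0.59 ± 0.14, had a limma adjusted p of 0.072. Without the shallow library the log2 fold change at + 7 h was 0.50, with an adjusted p of 0.269.

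Bak1, the other effector, was far lower than Bax and had its highest values at + 10 h. It was at 5.66 and 5.16 RPKM in controls at + 4 h, 6.10 and 6.03 at + 7 h, and 8.49 and 6.32 at + 10 h. After p38-MAPKi it was at 7.12 and 4.73, 6.25 and 6.48, and 9.66 and 8.90 RPKM. The treated libraries enclosed the controls at + 4 h and lay just above them at + 7 h and + 10 h. The log2 fold changes of 0.10 ± 0.25, 0.07 ± 0.21 and 0.34 ± 0.15 had limma adjusted p of 0.923, 0.85 and 0.269. Leaving out 1 library put the value at + 4 h between -0.19 (without p38-MAPKi replicate 1) and 0.40 (without replicate 2), and that at + 10 h between 0.13 (without control replicate 2) and 0.55 (without replicate 1). The value at + 7 h was 0.10 without the shallow library (adjusted p = 0.856).

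The survival genes did not pass the threshold in any comparison, and Mcl1 had the narrowest relative range of the 9. Mcl1 stood at 90.1 and 107 RPKM in controls at + 4 h, 101 and 109 at + 7 h, and 103 and 101 at + 10 h. After p38-MAPKi it stood at 98.3 and 103, 105 and 101, and 95.7 and 94.5 RPKM. The groups overlapped at + 4 h and + 7 h, and at + 10 h the treated libraries lay just below. The common effect was -0.03 on the log2 scale (95% interval -0.19 to 0.12, limma adjusted p = 0.793), a level 0.977 times that of controls. The log2 fold change at + 7 h was -0.03, or -0.05 without the shallow library (adjusted p = 0.922).

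Bcl2l1, whose product binds BH3-only proteins and the effectors, had treated values on opposite sides of the controls at the later times, with no call. It was at 10.2 and 11.9 RPKM in controls at + 4 h, 12.7 and 12.6 at + 7 h, and 12 and 12.6 at + 10 h. After p38-MAPKi it was at 10.8 and 11.7, 7.70 and 10.8, and 15.6 and 13.6 RPKM. The treated libraries were within the controls at + 4 h, below them at + 7 h and above them at + 10 h. The log2 fold changes were 0.04 ± 0.22, -0.47 ± 0.22 and 0.25 ± 0.10 (limma adjusted p = 0.975, 0.196 and 0.221). The lowest value was again that of the shallow library, and without it the log2 fold change at + 7 h was -0.22 (limma adjusted p = 0.586) and the change from + 7 h to + 10 h was 0.47 instead of 0.72 (adjusted p = 0.134 and 0.113).

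Counted over the 9 genes, treated libraries lay above both controls for 5, 4 and 4 of them at + 4 h, + 7 h and + 10 h, and below both for 1, 3 and 2. For all genes tested the shares above were 26.8%, 23% and 22.6%, and those below 13.7%, 38.7% and 29.6%. From + 4 h to + 7 h no member's effect changed with an unadjusted p under 0.05 in limma and none passed, against 6.94% and 0.00933% of all genes.

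The balance of the abundant effector and the abundant survival gene can be read within a library as the ratio of Bax to Mcl1 RPKM, a pair picked after their values were seen. In the 6 control libraries this ratio lay between 1.15 and 1.28. After p38-MAPKi it was 1.35 and 1.64 at + 4 h, 1.75 and 1.78 at + 7 h, and 1.20 and 1.31 at + 10 h. The ratio of Pmaip1 to Bcl2l1 joins a pair that was likewise picked with the values known. It was 0.690 to 1.03 in controls, and 1.09 and 0.9, 2.77 and 1.57, and 1.03 and 1.12 after p38-MAPKi. The value of 2.77 was that of the shallow library. The treated libraries at + 7 h had the highest values of both ratios. For Pmaip1 and Bcl2l1 this follows from the choice of the pair, whose log2 fold changes at + 7 h were 0.73 and -0.47. NOXA is described above as a binder of MCL1, and the ratio of Pmaip1 to Mcl1 is not given. The ratio of Pmaip1 to Bcl2l1 is therefore not read as a balance of binding partners. Since each ratio joins values already given, no test was made.

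Across the series the change after p38-MAPKi went with transcript length at the earlier times, and the 9 genes lie at different lengths. Spearman's rho between log2 fold change and length was -0.363 at + 4 h, -0.459 at + 7 h and 0.0586 at + 10 h (10743, 10902 and 10921 genes, which share the same libraries). At + 7 h the median log2 fold change was 0.45 for transcripts under 1500 bases and -0.34 for those over 4000. The transcript of Bax, with 1576 bases, and that of Bad, with 2007, are the shortest of the 9. Those of Bcl2l1, Trp53bp2 and Bcl2l11, with 4586, 4418 and 8029 bases, are the longest. With the length trend of each library removed, the log2 fold change at + 7 h was 0.18 for Bax, 0.23 for Bad and -0.23 for Bcl2l11, smaller than the values above by over 1.5 times. At + 4 h the value of Bax was then 0.27. For the pairs in the ratios above, Mcl1 had -0.07 beside the 0.18 of Bax at + 7 h, and Bcl2l1 had -0.40 beside the 0.60 of Pmaip1. The change of the Bax effect from + 7 h to + 10 h was then -0.24 (limma adjusted p = 0.349). Trp53bp2 and Pmaip1 kept -0.76 and 0.60 at + 7 h, and their common effects were -0.66 (limma adjusted p = 0.0157) and 0.49 (0.0173).

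**Figure D3:**
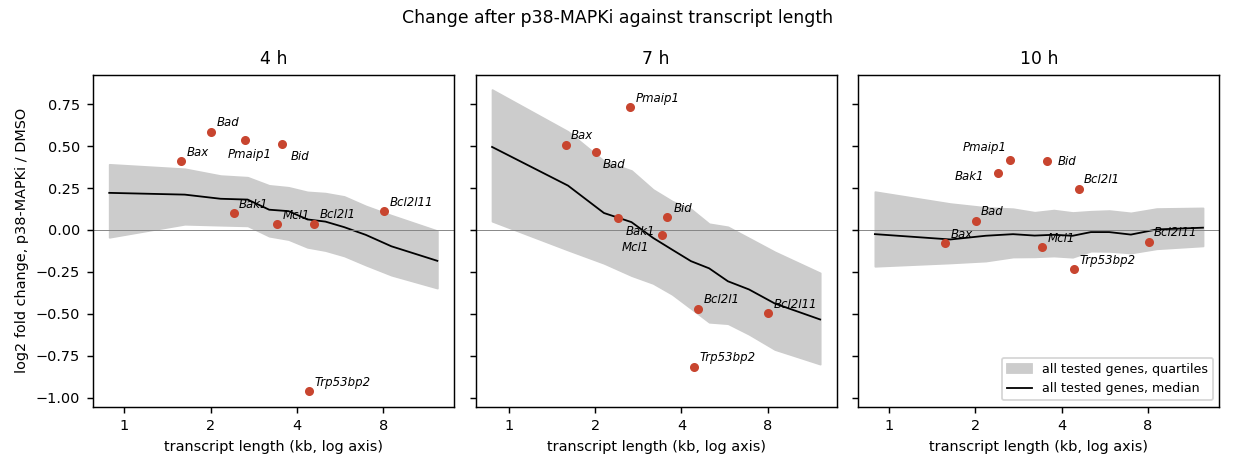
Log2 fold change after p38-MAPKi against transcript length (kb, log axis) at 4, 7 and 10 h, with a red point for each of the 9 genes, and the median (line) and quartiles (grey band) of all genes tested in bins of length. The band falls with length at 4 and 7 h and is level at 10 h. Trp53bp2 lies below the band at all 3 times and Pmaip1 above it.

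The other genes of the pathway were read in 5 lists, chosen like the 9 genes with earlier results known. Over these lists 2, 3 and 1 of the 33 tested genes passed at + 4 h, + 7 h and + 10 h (6.06%, 9.09% and 3.03%), beside the 0.909%, 2.13% and 0.803% of all genes tested given above. Of the other BCL2 family members 7 of 15 were expressed highly enough to be tested, and 1, 1 and 0 of them rose at + 4 h, + 7 h and + 10 h while none fell. Of the 9 genes for proteins that act at or leave the mitochondrion 1 rose at + 7 h, and of the 5 inhibitor of apoptosis (IAP) genes 1 fell at + 7 h. Of the death receptor and PIDDosome genes 7 of 10 were tested, and 1 rose at + 4 h and the same gene at + 10 h. Of the p53 and ASPP genes 5 of 7 were tested and none passed at a single time. Median log2 fold changes at + 4 h were 0.24, 0.11, -0.29, 0.34 and -0.12 for the 5 lists in this order, beside 0.07 for all genes tested. They were -0.16, -0.04, -0.18, 0.07 and -0.27 at + 7 h (all genes -0.14) and 0.05, -0.10, 0.12, -0.15 and -0.02 at + 10 h (all genes -0.02), so that 4 of the 5 lists did not keep 1 sign over the 3 times.

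Bbc3 encodes PUMA, a BH3-only protein that acts like Pmaip1 downstream of p53. It was at 9.45 and 11.7 RPKM in controls and 25.2 and 19.2 after p38-MAPKi at + 4 h, at 16.5 and 17.0 against 23.7 and 26.2 at + 7 h, and at 15.2 and 12.2 against 19.2 and 21.8 at + 10 h. Like Pmaip1, it lay above controls at all 3 times. Its log2 fold change was 1.07 ± 0.21 at + 4 h (limma adjusted p = 0.000268) and 0.74 ± 0.12 in the common effect (0.00945). Without control replicate 1 the value at + 4 h was 0.92 and the call was lost (adjusted p = 0.388), as it was in limma without the trend, with median centring, with no filter, in the single fit over 12 libraries and with voom (adjusted p between 0.0646 and 0.581). Without the shallow library the value at + 7 h was 0.64 (limma adjusted p = 0.0882) instead of 0.57, and the common effect was called without any single library.

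Pidd1 encodes the scaffold of the PIDDosome, which activates caspase-2, and is itself a p53 target gene. It was at 4.84 and 6.29 RPKM in controls and 12.9 and 8.98 after p38-MAPKi at + 4 h, and at 8.97 and 7.91 against 17.9 and 14.5 at + 10 h. At + 7 h the treated libraries, 7.50 and 12.7 RPKM, enclosed the controls at 8.22 and 9.47. The log2 fold changes were 0.97 ± 0.23 (limma adjusted p = 0.00772), 0.15 ± 0.27 (0.739) and 0.93 ± 0.13 (0.0402). The call at + 4 h was lost without control replicate 1 (0.78, adjusted p = 1.0), control replicate 2 (1.15, 0.0701) or p38-MAPKi replicate 1 (0.70, 0.0989) and in the same 5 fits as that of Bbc3 (adjusted p between 0.213 and 0.689). The call at + 10 h was kept without any single library and lost in limma without the trend (adjusted p = 0.16), with no filter (0.185) and in the single fit (0.575). At + 7 h the value was 0.53 without the shallow library (limma adjusted p = 0.186).

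Mdm2, whose product targets p53 for degradation and which p53 activates, rose in the common effect by 0.36 ± 0.09 on the log2 scale (limma adjusted p = 0.0404). Its controls were at 19.3 and 21.4, 24.0 and 25.9, and 28.2 and 25.9 RPKM at the 3 times, and its treated libraries at 32.0 and 24.4, 29.5 and 31.0, and 32.9 and 35.2, above the controls each time. The call was kept only without p38-MAPKi replicate 1 at + 4 h or at + 7 h (limma adjusted p = 0.0448 each), and was lost without any other library, with adjusted p between 0.052 and 0.0971 and log2 fold changes between 0.32 and 0.39. Trp53 itself was at 17.3 and 20.0 RPKM in controls and 18 and 16.0 after p38-MAPKi at + 4 h, at 17.7 and 18.3 against 13.2 and 14.0 at + 7 h, and at 20.0 and 17.7 against 18.9 and 18.2 at + 10 h. It passed in no comparison. Mdm4, a relative of Mdm2, lay between 6.32 and 11.6 RPKM and did not pass either.

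The remaining calls were at + 7 h. Bok, an effector-like family member, rose from 16.1 and 18.4 RPKM to 32.4 and 32.9 (log2 fold change 0.93 ± 0.18, limma adjusted p = 0.0461), a call lost without control replicate 1 (0.83, 0.0887) or 2 (1.02, 0.281). Endog, a mitochondrial nuclease, rose from 33.0 and 30.7 RPKM to 56.9 and 56.2 (0.83 ± 0.17, limma adjusted p = 0.0473), a call lost without control replicate 1 (0.88, 0.0599) or 2 (0.78, 0.348). Birc6, a large ubiquitin ligase of the IAP family, fell from 7.40 and 10.9 RPKM to 3.65 and 4.10 (-1.22 ± 0.25, limma adjusted p = 0.0487), a call lost without control replicate 2 (-0.94, 0.398). All 3 calls were kept without the shallow library, with log2 fold changes of 0.94, 0.82 and -1.13 (limma adjusted p = 0.0202, 0.0372 and 0.0192). At + 10 h the log2 fold changes of these 3 genes were 0.07, -0.18 and -0.22. At + 4 h, with no call, Bok was at 23.2 and 28.8 RPKM after p38-MAPKi against 13.9 and 18.8 in controls. Endog was then at 27.6 and 48.0 against 25.5 and 35.9, and Birc6 at 7.47 and 4.37 against 8.59 and 8.75. Birc6 lay below controls at all 3 times, as did 4.13% of all genes tested. With the length trend removed none of the 3 passed at + 7 h, with log2 fold changes of 0.66, 0.41 and -0.57 and limma adjusted p of 0.0933, 0.157 and 0.0974.

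The other abundant genes of the lists did not pass. Vdac1, a channel of the outer mitochondrial membrane, lay between 162 and 188 RPKM in the 12 libraries, Vdac2 between 41.7 and 50.5 and the protease gene Htra2 between 29.5 and 43.0. Birc5 (survivin), which also serves in mitosis, lay between 55.2 and 99.6 RPKM and Xiap, the direct caspase inhibitor, between 4.32 and 10.3. Bcl2l14 lay between 8.39 and 15.2 RPKM, and Tradd and Tnfrsf10b of the death receptor list between 13.2 and 20.6 and between 6.26 and 10.2. Xiap came closest to a call, with a log2 fold change of -0.82 ± 0.23 at + 7 h (limma adjusted p = 0.0681). It was then at 4.53 (shallow library) and 4.89 RPKM after p38-MAPKi against 7.32 and 9.39 in controls. At + 10 h its mean was 9.58 RPKM after p38-MAPKi and 8.82 in controls.

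**Figure D4:**
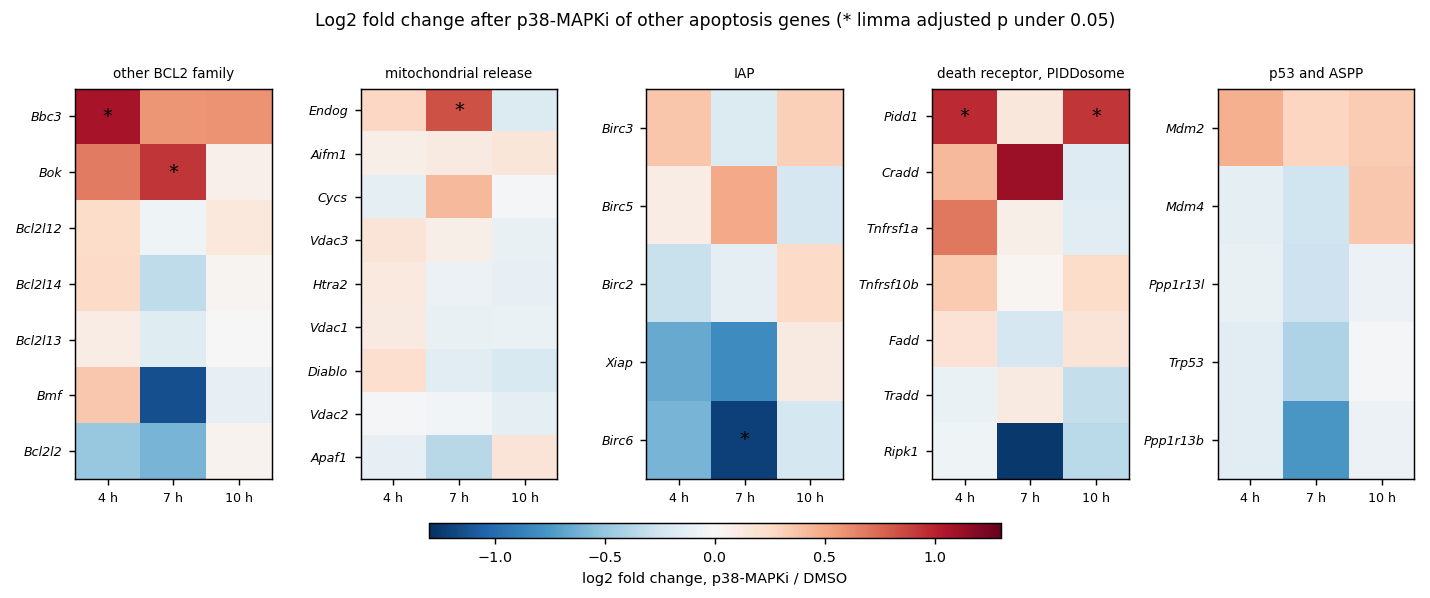
Log2 fold change after p38-MAPKi (colour, red higher and blue lower) of the tested genes of 5 apoptosis lists at 4, 7 and 10 h, with an asterisk at an adjusted p under 0.05. Asterisks stand at Bbc3 and Pidd1 at 4 h, at Bok, Endog and Birc6 at 7 h, and at Pidd1 at 10 h.

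Some markers of the cell types of the blastocyst also differed after p38-MAPKi. The trophectoderm genes Gata3 and Cdx2 fell in the common effect (log2 fold changes -0.51 ± 0.09 and -0.38 ± 0.08, limma adjusted p = 0.0164 and 0.0322). They were 2 of 7 tested markers of that list, where 1.32% of all genes tested passed and fell. Of the same 7 markers, 3 had a common log2 fold change above 0. The summed trophectoderm markers, of which Krt18 and Krt8 made up the larger part (1060 and 571 RPKM after p38-MAPKi at + 4 h), lay at 1950 to 1990 RPKM after p38-MAPKi and 1770 to 1930 in controls at + 4 h, and at 2100 to 2230 within the controls at 1850 to 2430 at + 7 h, and at 2220 to 2500 against 2360 to 2600 at + 10 h. Tead4 and Eomes of that list had log2 fold changes of -0.65 and -0.39 at + 7 h (limma adjusted p = 0.0803 and 0.211). At + 4 h their means were 37.6 and 26.7 RPKM after p38-MAPKi, beside 36.9 and 23.8 in controls. At + 10 h they were 44.1 and 29.4 RPKM beside 42.2 and 30.7. The summed primitive endoderm markers were 133 to 139 RPKM after p38-MAPKi and 194 to 213 in controls at + 7 h. Gata6, whose protein the paper also describes in uncommitted inner cells, made up the larger part (mean 83.0 RPKM after p38-MAPKi at + 7 h). Gata4 and Sox17 reached at most 3.86 and 4.38 RPKM in any library. At + 7 h 1 of 6 tested markers, Dab2, fell (-1.0 ± 0.19, limma adjusted p = 0.0461), a call lost without either control replicate of that time. Of these 6, 5 lay below controls, where 38.7% of all genes tested did and 2.13% passed. At + 4 h and + 10 h the sums of that list overlapped. The summed epiblast markers were 572 to 599 RPKM after p38-MAPKi and 635 to 641 in controls at + 10 h, and they overlapped at the earlier times. Pou5f1 made up the larger part of this sum (mean 371 RPKM after p38-MAPKi at + 10 h). At + 10 h 6 of the 8 markers lay below controls, 3 had an unadjusted p under 0.05 and 0 passed in limma. The shares of all genes tested were 29.6%, 19.8% and 0.803%. The part of cell type in the values of Trp53bp2 and Pmaip1 was not tested.

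Some of the 9 genes varied together over the 12 libraries, which share depth and length trends. Bad and Trp53bp2 had Pearson's r = -0.904 of log2 RPKM (n = 12), Bax and Bad 0.830, and Bax and Trp53bp2 -0.725. Pmaip1, by contrast, had r between -0.426 and 0.598 with each of the other 8. Among 10555 genes the pattern nearest to that of Trp53bp2 was that of Uhmk1 (r = 0.942), followed by Pou2f1 (0.933) and Mob1b (0.921). The nearest to Pmaip1 were Fam53b (0.944), Tap1 (0.940) and Ltb4r2 (0.936), and those to Bax were Fam98c (0.984), Urm1 (0.977) and Rpl4 (0.975). Bad was followed most closely by Adprhl2 (0.948), Bcl2l1 by Gm12790 (0.958), Mcl1 by Hmgb3 (0.935), Bak1 by Nupl2 (0.943), Bcl2l11 by Strada (0.946) and Bid by Ctsa (0.893). Without the shallow library (n = 11) the r of Gm12790 with Bcl2l1 was 0.898 and that of Strada with Bcl2l11 0.878, the largest drops among these nearest genes.

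The start regions of Trp53bp2, the member that fell, and of Bax, the most abundant member and a classical p53 target gene, are shown as the windows searched for motifs. The sequences are those of RefSeq on GRCm38.p6, from 250 bases before to 50 bases after the annotated start, and 8 of the 9 genes, all but Pmaip1, had such an entry used here. 3 motifs, chosen after the values were seen, were searched on both strands: the p53 half-site by its name, the GC box GGGCGG and the E-box CACGTG. The first stretch, chr1:182408917-182409216 on the plus strand, lies at the start of Trp53bp2 and has its 6 GC boxes in capitals. The second, chr7:45466849-45467148 on the minus strand, lies at the start of Bax and has in capitals 1 p53 half-site and 2 E-boxes, with its 3 GC boxes left in lower case.
Trp53bp2: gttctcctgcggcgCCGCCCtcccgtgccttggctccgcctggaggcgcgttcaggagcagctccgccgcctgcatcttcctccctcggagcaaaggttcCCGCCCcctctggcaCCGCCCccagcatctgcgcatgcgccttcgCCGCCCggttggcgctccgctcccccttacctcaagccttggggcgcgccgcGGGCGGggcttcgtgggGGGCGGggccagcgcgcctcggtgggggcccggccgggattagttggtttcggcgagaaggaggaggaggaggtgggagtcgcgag
Bax: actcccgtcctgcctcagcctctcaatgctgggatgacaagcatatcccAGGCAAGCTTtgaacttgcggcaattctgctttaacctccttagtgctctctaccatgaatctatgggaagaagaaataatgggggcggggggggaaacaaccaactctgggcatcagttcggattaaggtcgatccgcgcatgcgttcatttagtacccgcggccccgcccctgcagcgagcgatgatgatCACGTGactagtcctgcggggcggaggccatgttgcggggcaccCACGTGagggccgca
Bax was the only one of the 8 genes searched with a p53 half-site or an E-box in this window, and 8.36% and 7.15% of 32851 mouse promoters of this length hold them. The GC box is held by 35.7% of them and by the windows of Trp53bp2, Bcl2l11, Mcl1, Bid and Bax and 1 of the 2 windows of Bad, but not by those of Bcl2l1 and Bak1. A match is a run of letters and not evidence of a bound factor.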

How the data were processed

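Pools of blastocysts were profiled by poly(A)-selected, directional, single-end mRNA-Seq. Per the paper's methods and the submitters' processing notes, Trim Galore (0.4.1) was used for trimming, HISAT2 (2.0.5) for alignment to GRCm38, and SeqMonk for quantification. The authors deposited log2 RPKM for 34245 genes, with a gene without a read written as 0.9 of a read. The counting strand and the treatment of multi-mapping reads are not given in the sources used here. Whole reads, which give the depth of each library and serve in 1 alternative, were recovered for 34180 genes (99.8%, tolerance 0.02 reads) from GENCODE M21 lengths or a search over lengths. Replicates are the pools that the labels number.

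Tests used limma 3.58.1 in R 4.3.3 (lmFit and eBayes with the trend, two-sided) on log2 values as deposited. A gene was tested at 1 RPKM or more in 2 of 4 libraries, or in 4 of 8 or 12. P-values were adjusted by the Benjamini-Hochberg method over all genes tested, with a threshold of 0.05. An exact permutation of 2 against 2 libraries cannot give a p below 0.333. The common effect has the time point as a covariate. The fits were tested on simulated data. The 9 genes, the lists and the tests were chosen with earlier results of these data known. Named are the 9 genes, the 3 most abundant genes of each of 5 lists, every listed gene past the threshold and, for each of the 9, the 3 or fewer genes most correlated with it. A further list is not reported here. Voom on the recovered reads was added after seeing the data. No other column of samples was in the table.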

Additional observations from a re-analysis of the deposited data

How the results depend on the processing

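Across 20 alternative fits Pmaip1 kept its call in the common effect, and Trp53bp2 kept its own in 14 of 20, losing it without the filter (limma adjusted p = 0.0669) and in 5 of the fits that leave out a library. At + 4 h Trp53bp2 was called in 5 of 13 alternatives, with log2 fold changes between -1.28 and -0.65 and limma adjusted p between 2.03e-05 and 0.671. Of 4070 results for single genes, 3868 stayed on their side of the threshold with their direction or with neither value past it, 77 lost a call, 125 gained one and 0 reversed. Of these 3868, 274 uncalled values changed sign. All 54 group levels stayed within 1 SD when geometric means replaced means. For means of 2 libraries this outcome is certain, so it says nothing on how firm the levels are.

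Genes called are given in the order + 4 h, + 7 h, + 10 h, common effect, change from + 4 h to + 7 h, change from + 7 h to + 10 h, and control + 10 h against + 4 h, with 98, 233, 88, 314, 1, 1 and 51 as reported. They were 11, 0, 9, 175, 1, 0 and 26 for limma without the trend, 0, 0, 89, 602, 0, 0 and 37 with median centring, and 0, 0, 0, 89, 0, 0 and 0 with no filter. They were 36, 947, 166, 254, 1, 544 and 276 for at least 10 RPKM, 115, 509, 100, 383, 1, 1 and 60 with a pseudocount of 1, and 133, 22, 267, 434, 1, 1 and 243 with the length trend removed. Voom on recovered reads gave 0, 1114, 470, 671, 0, 814 and 266. A single fit over 12 libraries, where the common effect has no other value, gave 0, 2565, 0, 0, 1 and 0 for the other 6. Leaving out 1 library gave 9 to 424, 0 to 2919, 78 to 140, 64 to 636, 0 to 302, 0 to 2898 and 46 to 1228. The extremes came without control replicate 1 (9) and p38-MAPKi replicate 1 (424) at + 4 h, control replicate 2 (0) and p38-MAPKi replicate 2 (2919) at + 7 h, control replicate 1 at + 7 h (64) and p38-MAPKi replicate 1 at + 4 h (636) for the common effect, and control replicate 2 at + 4 h (1228) for the control time course. Where 0 genes were called in limma, 251 to 3840 had an unadjusted p under 0.05. The cause of these shifts was not tested.

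Of the 9 genes, 1, 0, 0, 2, 0, 0 and 0 were called as reported. At + 4 h the count was 0 without the trend, with median centring, with no filter, in the single fit and with voom, with 3 or 4 genes at an unadjusted p under 0.05, and in the common effect it was 1 with no filter. Bad was called there besides for at least 10 RPKM, with median centring and with voom. At + 7 h it was 2 for at least 10 RPKM (Trp53bp2 and Pmaip1), 1 with the pseudocount, 4 in the single fit (Bax and Bad besides) and 3 with voom. Voom also called 1 at + 10 h (Pmaip1), and both voom and at least 10 RPKM called 1 in the change from + 7 h to + 10 h (Bax). Pmaip1 was called between control + 10 h and + 4 h for at least 10 RPKM and with the length trend removed, 1 gene each. Leaving out 1 library gave 0 to 1, 0 to 3, 0, 1 to 2, 0, 0 to 3 and 0 to 1 of the 9. Leaving out p38-MAPKi replicate 2 at + 7 h gave the highest counts, 3 genes at + 7 h (Trp53bp2, Bcl2l1 and Pmaip1) and 3 in the change to + 10 h (Trp53bp2, Bcl2l1 and Bax), and leaving out control replicate 2 at + 4 h called Pmaip1 in the control time course.

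The replicate numbers were checked for pairing: deviations of same-numbered libraries correlated with r = -0.001, 0.150 and 0.104 at the 3 times (11050 genes). These values do not decide whether same-numbered pools were paired, and the main fits took the numbers as names only. With the replicate block the genes called were 75, 2023, 410, 205, 1, 1 and 536, and members called were 3 at + 7 h (Trp53bp2, Bax and Pmaip1), 1 at + 10 h and 1 between control times (Pmaip1 in both). The block changed no other call of the 9.

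Median centring moved the median log2 fold change of all genes at + 7 h from -0.14 to 0.05, that of control + 10 h against + 4 h from 0.14 to 0.00, and those of the 2 changes of effect from -0.21 to 0.01 and from 0.15 to -0.04. With it went the + 7 h values of Bax, Bad, Pmaip1 and Trp53bp2 to 0.70, 0.66, 0.93 and -0.62, and those of Bcl2l1, Bcl2l11, Bak1 and Mcl1 to -0.27, -0.30, 0.26 and 0.17. Voom turned the split of higher and lower calls at + 7 h from 102 and 131 to 611 and 503 (5 and 17 with the length trend removed), and at + 10 h from 37 and 51 to 248 and 222. In the control time course it went from 47 and 4 to 25 and 12 with median centring and to 133 and 133 with voom. With 2 pools a group, few residual degrees of freedom limit every test at a single time, and in a fit without 1 library the lone pool is assumed to vary like the other pools.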
